A study of Mus musculus with 12 samples.

Results

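The effect that losartan and metformin had in common was measured in the kidneys of Alport mice, as the mean of the losartan and metformin group means minus the mean of the vehicle group. The rule took the 6 samples whose titles name either drug and the 3 Alport samples given vehicle, 9 of the 12 samples of the series. The other 3 samples were wild-type kidneys given vehicle, which supplied a reference level and a share of the estimate of spread. Every value below is a log2 value of a microarray probe set, so that a difference of 1 is a 2-fold difference in signal.

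All 9 Alport samples carried the genotype that the labels write as COL4A5 nonsense (G5X) hemi, so the vehicle controls had the same mutation as the treated mice. The stated age was 16 weeks in every group, and the tissue was whole kidney. Losartan was given in drinking water at 125 and then 250 µg/mL, and metformin at 2.5 and then 5 mg/mL. The labels put the lower dose in weeks 6 to 11 and the higher in weeks 12 to 20, which runs past the stated age. The labels also speak of losartan as co-administered, and the groups here follow the sample titles, which name 1 agent each. Whether the 3 samples of a group came from 3 mice is not said in the labels, so a p-value here weighs a difference against a spread that may be technical only. With 1 dose plan for each agent and no untreated Alport kidney without vehicle, the comparison holds no information on dose.

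Alport syndrome is a hereditary disease of type IV collagen, the network-forming collagen of the glomerular basement membrane. Loss of the chain encoded on the X chromosome leaves a membrane that thickens, splits and leaks protein, and the kidney goes on to inflammation, tubular loss and scarring. Losartan blocks the angiotensin receptor through which angiotensin raises blood pressure and promotes matrix production. Metformin is a biguanide used in diabetes that slows mitochondrial respiration, activates the energy-sensing kinase AMPK and lowers glucose output. The kidney takes metformin up from blood through organic cation carriers of the proximal tubule, the segment that reabsorbs most of the filtered solutes and that burns fatty acids as its main fuel.

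Each sample was hybridised to 1 Clariom S array, which gave 22206 probe sets, of which 19572 were named by 1 gene symbol. The sample medians lay between 5.94 and 6.065 in the 9 Alport samples. The number of arrays limits the precision: the median standard error of the difference between both drugs and vehicle was 0.17. Kidney markers were bright in all 9 Alport samples, with the sodium-phosphate cotransporter gene Slc34a1 at 18.40 to 19.01 and uromodulin (Umod) at 18.62 to 18.94, while the nephrin gene Nphs1 of podocytes read 8.90 to 9.66. Col4a5, the mutated gene, read 4.44, 4.13 and 4.97 under vehicle, 4.64, 4.24 and 4.09 under losartan and 4.48, 4.48 and 4.50 under metformin, below the wild-type values of 5.06, 5.83 and 5.40. These readings lie below every sample median, near the dim end of the scale, and the drug groups overlapped the vehicle group. The vehicle samples varied more than the others, with limma array weights of 0.712 to 0.876 against 0.899 to 1.21 in the other 9 samples, and results that rest on 1 of them are given without it below. Vehicle sample 3 held more signal of bladder-type epithelium than any other sample, with the basal keratin gene Krt5 at 7.56 against 4.51 to 5.46 in the other 8 Alport samples.

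With both drugs, 2033 of 22206 probe sets (9.16%) passed limma's moderated test at a Benjamini-Hochberg adjusted p under 0.05. Of these, 1042 (4.69%) were higher and 991 (4.46%) were lower than with vehicle. These shares are the background for every list count that follows, and a list with 1 or 2 calls is close to it unless the list is very short. Members and lists were chosen with earlier results of these data known, so the list counts are descriptions and not tests of the lists. The median difference over all probe sets was 0. At least a 2-fold change was reached by 213 of the risers and 347 of the fallers. When each sample was centred on its own median, which shifts the median of all probe sets by 0.08, 2277 passed and the split became 1495 higher and 782 lower. Without vehicle sample 1, 803 probe sets passed, 371 higher and 432 lower, and 769 of them were among the 2033. All 6 drug samples lay above all 3 vehicle samples for 1303 probe sets (5.87%) and below them for 1087 (4.9%).

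The difference between metformin and losartan shows how far a change was common to both. Its value uses no vehicle sample, while its test and interval use the spread of all 12 samples. Only 10 of 22206 probe sets (0.045%) passed limma's test between the drugs, 4 (0.018%) higher and 6 (0.027%) lower with metformin. At an adjusted p under 0.05, 6 of the 2033 changes over both drugs also differed between the drugs. A mean over both drugs can pass through 1 drug alone. A p above the threshold does not show equal action, so the intervals are given too. The 95% confidence interval of metformin minus losartan stayed within 2-fold in either direction for 958 of the 1042 risers (91.9%) and 756 of the 991 fallers (76.3%). Over all probe sets the same held for 20862 (93.9%). The median size of the metformin minus losartan difference among the 2033 was 0.21, against a median of 0.80 for both drugs minus vehicle. Metformin samples were on average above losartan samples for 70.2% of the fallers and 42.0% of the risers, beside 47.5% of all probe sets. The share among fallers was 59.6% without metformin sample 1 and 74.6% without metformin sample 3, and among risers it was 51.2% without losartan sample 2.

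**Figure D1:**
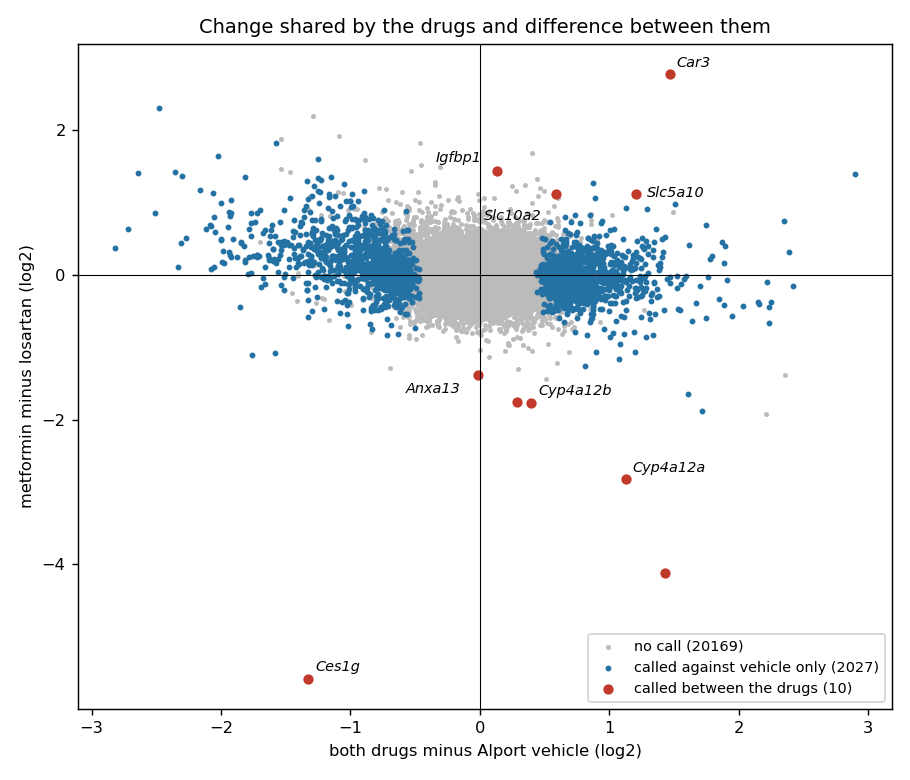
Each point is a probe set, with the log2 difference of both drugs minus vehicle on the horizontal axis and the log2 difference of metformin minus losartan on the vertical axis, 3 samples per group. The 2027 probe sets that passed only against vehicle spread along the horizontal axis, and the 10 that passed between the drugs lie far above or below 0 on the vertical axis.

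The 15 largest falls and 15 largest rises were taken among genes that passed the test, whose 6 drug samples did not overlap the 3 vehicle samples and which did not differ between the drugs at the threshold. Of the 15 falls, 7 were members of the interstitial matrix list described below. Jchain, the joining chain of secreted antibodies and a plasma cell product, read 8.03, 7.57 and 8.57 under vehicle, 4.94, 4.79 and 5.44 under losartan and 5.92, 5.57 and 4.78 under metformin. The drug values thus lay around the wild-type readings of 5.34, 5.36 and 5.20, and the fall was 7.05-fold (log2 -2.82 ± 0.24, SE; limma adjusted p = 3.7e-05). Ccl2, the chemokine that draws monocytes, read 10.08, 8.62 and 8.36 under vehicle, 6.42, 6.11 and 5.42 under losartan and 7.37, 6.57 and 5.91 under metformin. Its fall was 6.59-fold (log2 -2.72 ± 0.35; limma adjusted p = 0.000353). Both genes ended below or near the sample medians in the treated kidneys, where fold changes are less certain.

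The rises included 5 organic anion carriers of the tubule and the secreted enzyme gene Dnase1. Dnase1, which encodes an enzyme that digests extracellular DNA, read 11.90, 13.05 and 13.01 under vehicle, 14.47, 14.83 and 15.27 under losartan and 16.02, 16.21 and 16.53 under metformin. Its 3 metformin values lay above its 3 losartan values, yet the difference of 1.40 between the drugs did not pass the test (95% interval 0.80 to 1.99, limma adjusted p = 0.123). The rise over vehicle was 7.47-fold (log2 2.90 ± 0.24; limma adjusted p = 3.7e-05). Cyp2d12, a cytochrome P450, read 9.84, 10.24 and 10.38 under vehicle, 11.99, 12.35 and 12.80 under losartan and 12.32, 12.47 and 13.31 under metformin. It rose 5.23-fold, and the drug groups overlapped each other (metformin minus losartan 0.32, 95% interval -0.23 to 0.87). Tfrc, the transferrin receptor that brings iron into cells, rose 5.10-fold from 6.07, 7.59 and 7.56 with vehicle to between 8.88 and 10.12 with the drugs. Hpd, a dioxygenase of tyrosine breakdown, rose 4.75-fold from between 8.72 and 9.81 to between 10.19 and 12.24.

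Among the other large rises were 4 organic anion carriers of the Slc22 family, whose members resemble each other, so that shared signal cannot be told apart. Slc22a19 rose 5.36-fold, Slc22a26 4.08-fold and Slc22a22 3.76-fold. Slc22a7 rose 4.69-fold, a value that vehicle sample 1 carried in part, since the log2 change of 2.23 was 1.45 without it (limma adjusted p = 0.0342), and its call was lost with a trended robust prior (0.0514). The organic anion transporter Slco1a1 rose 4.69-fold and the lysolipid carrier Mfsd2a 4.65-fold, the latter no longer past the threshold without vehicle sample 1 (log2 1.82, limma adjusted p = 0.0826) or with the trended robust prior (0.0649). Pm20d1, an enzyme that makes N-acyl amino acids, rose 4.45-fold, Fcamr, a receptor for IgA and IgM, 4.42-fold, and the acyl-CoA synthetase Acsm1 3.71-fold. Tc2n rose 3.86-fold and the adhesion molecule gene Ceacam2 3.70-fold. The remaining large falls were Serpina3n, an acute-phase protease inhibitor (4.35-fold), Thbs2, a thrombospondin (4.25-fold), and Dpysl3, a cytoskeletal protein (3.99-fold), beside the matrix, contractile and growth genes described next.

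**Figure D2:**
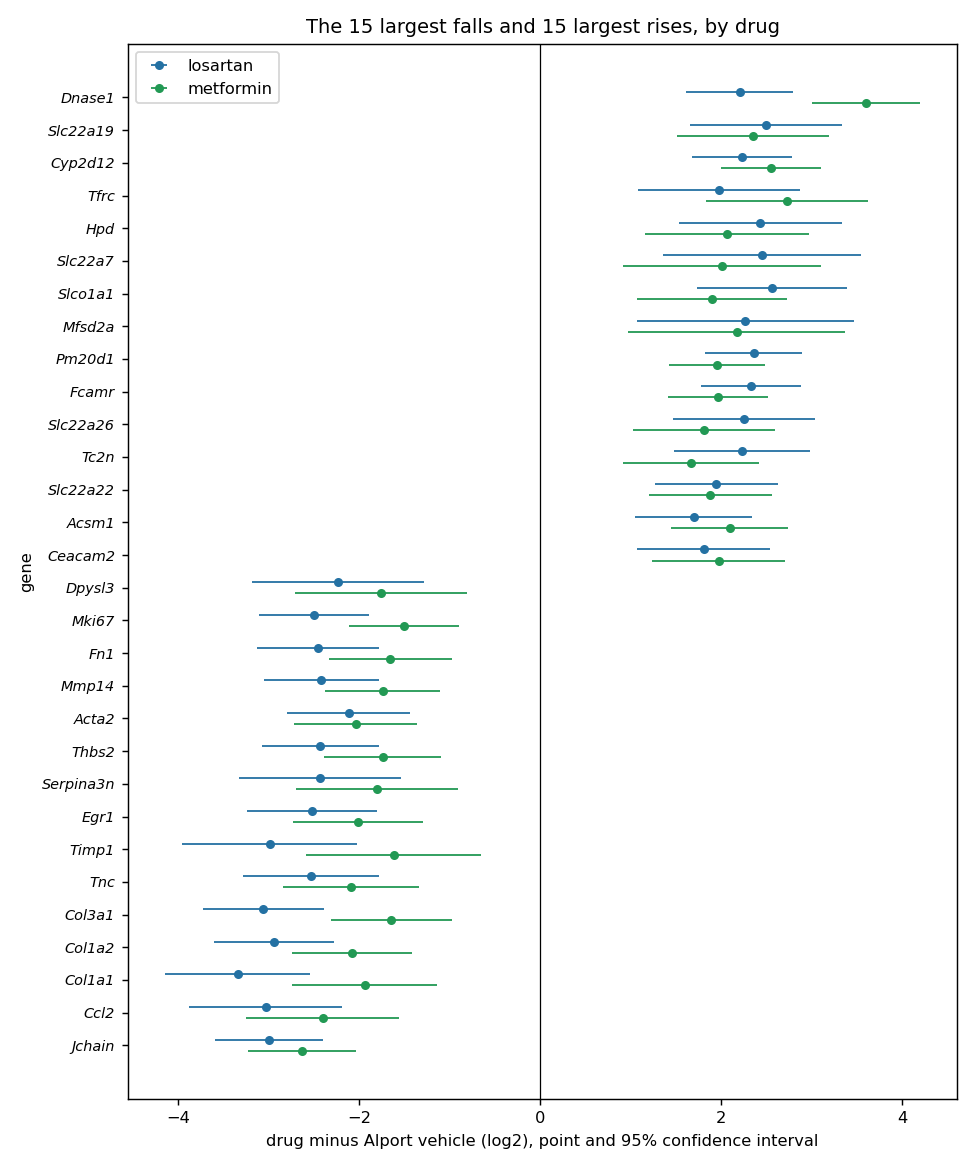
Log2 difference from the vehicle mean of losartan and of metformin, 3 samples each, for the 15 largest falls and 15 largest rises, with 95% confidence intervals from the fit of all samples. Both drugs lie on the same side of 0 for all 30 genes, as the selection required, and the 2 estimates share the vehicle samples.

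Among the gene lists, interstitial matrix had the largest median difference. Of its 29 measured genes 28 fell and none rose, beside 4.46% of all probe sets that fell, and the median difference was -1.52. The median was -1.72 with losartan and -1.50 with metformin against the same vehicle samples, and the median of metformin minus losartan was 0.48. The confidence interval of that difference stayed within 2-fold for 14 of the 29 genes, and for 2 of the 8 fibrillar collagens. An equal fall with both drugs was thus not shown for the rest. The same count was 11 of 33 for tubular injury, 5 of 23 for macrophage and 2 of 9 for MHC class II genes. It was 46 of 58 for proximal tubule and 17 of 19 for cholesterol genes. Over all probe sets the share was 93.9%, over the risers 91.9% and over the fallers 76.3%. None of the lists named here exceeded the share of its direction. All 8 fibrillar and related collagens fell, as did 8 of 8 adhesive and matricellular genes, 3 of 4 proteoglycans, 2 of 2 elastic fibre genes, 3 of 3 cross-linking or processing genes and 4 of 4 proteases and inhibitors. Versican (Vcan) was the member that did not pass. With any 1 drug or vehicle sample left out, 25 to 28 of the 29 still fell.

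Col1a1, which encodes a chain of the main scar collagen, read 10.71, 11.01 and 11.21 under vehicle, 7.92, 7.16 and 7.82 under losartan and 9.45, 9.87 and 7.79 under metformin. Metformin sample 3 lay among the losartan samples, while metformin samples 1 and 2 lay between losartan and vehicle. The fall was 6.24-fold (log2 -2.64 ± 0.33; limma adjusted p = 0.000337), and metformin minus losartan was 1.40 (95% interval 0.60 to 2.20, limma adjusted p = 0.298). Col3a1, the other major interstitial collagen, showed the same order, with 12.80 to 12.87 under vehicle, 9.07 to 10.35 under losartan and 10.39 to 11.60 under metformin. It fell 5.11-fold and stayed 3.77 log2 units above wild type, where it read 6.43 to 6.89. Col1a2 fell 5.71-fold and the cell-binding glycoprotein fibronectin (Fn1) 4.16-fold. The matricellular gene Tnc fell 4.97-fold, and the elastic fibre gene Fbln1 fell 3.84-fold with little between the drugs (0.31, 95% interval -0.17 to 0.80).

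Genes on both sides of matrix turnover fell together. Timp1, which inhibits metalloproteinases, read 9.81, 8.67 and 9.02 under vehicle, 6.79, 5.5 and 6.24 under losartan and 8.23, 8.16 and 6.25 under metformin, a fall of 4.94-fold. The membrane metalloproteinase Mmp14 fell 4.23-fold, from 9.34 to 10.26 down to 7.31 to 8.80. Sparc, a collagen-binding glycoprotein and the brightest gene of the list, fell 2.85-fold from 16.90 to 17.20 down to 15.18 to 16.26. In these whole-kidney samples, fewer cells of a type and less RNA per cell cannot be told apart. The summed level of the 23 macrophage markers moved with the matrix genes, at 13.71 to 15.37 under vehicle, 12.79 to 13.13 under losartan and 12.88 to 14.22 under metformin on the log2 scale, and its part in the result was not tested.

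**Figure D3:**
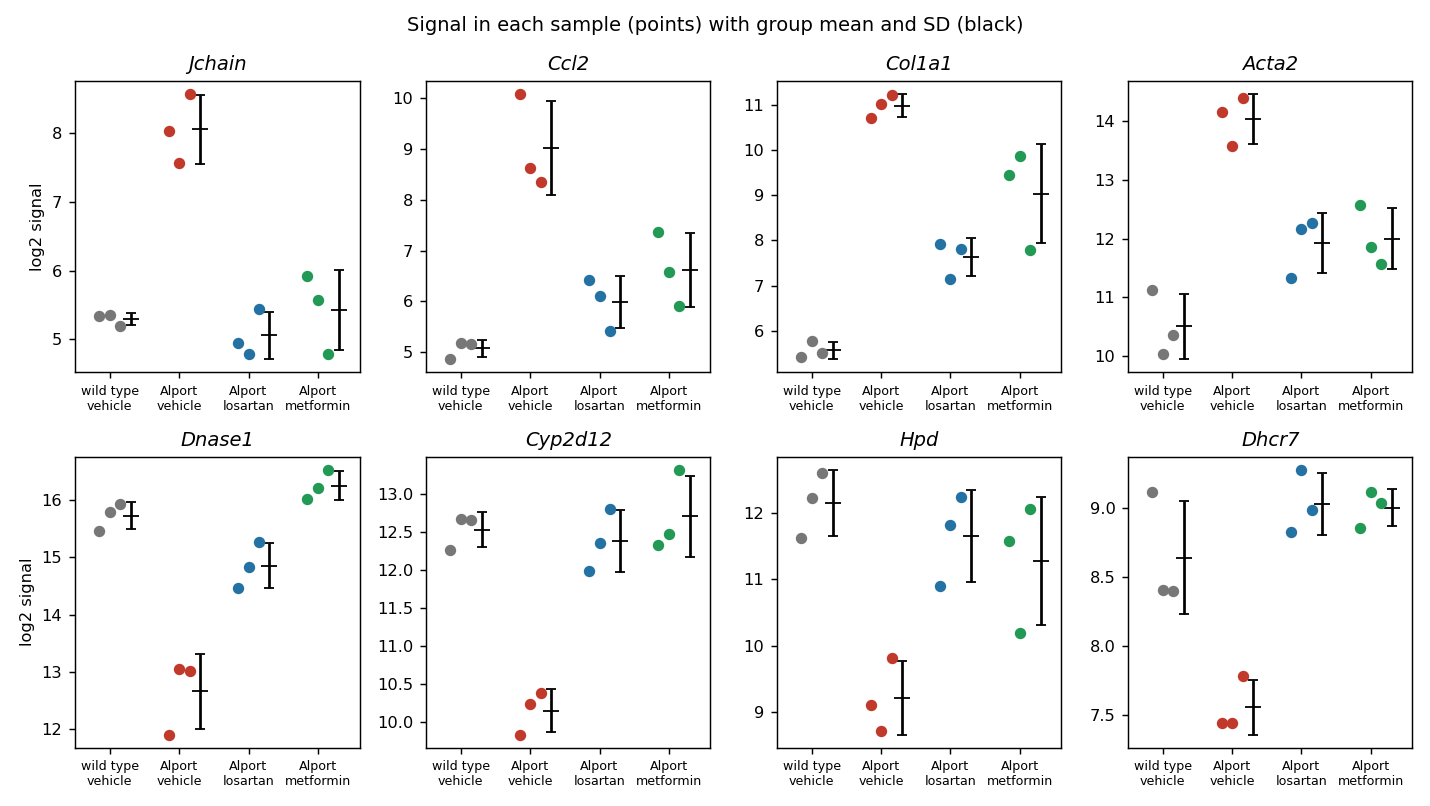
Log2 value of each sample, with group mean and SD (n = 3), for 8 genes in wild type with vehicle, Alport with vehicle, Alport with losartan and Alport with metformin. In all 8 panels the 6 drug values lie on 1 side of the 3 Alport vehicle values, as the selection required for those genes taken from the largest falls and rises.

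Basement membrane genes fell in part. Of 19 measured, 11 fell and none rose, beside 4.46% of all probe sets that fell, with a median of -0.62. Among the 7 collagen chains of this list 3 fell, and among the 12 laminin, nidogen, perlecan and agrin genes 8 fell. Nid1, the linker of laminin to type IV collagen, read 12.22, 11.77 and 11.65 under vehicle, 10.58, 10.41 and 10.56 under losartan and 10.81, 10.80 and 10.45 under metformin, a fall of 2.43-fold. The perlecan gene Hspg2 fell 2.05-fold, the laminin chain gene Lama2 2.32-fold and the collagen gene Col18a1, the source of endostatin, 2.46-fold. The chains that partner the mutated one in the glomerular membrane did not pass: Col4a3 differed by -0.12 (95% interval -0.48 to 0.23) and read 13.19 to 13.94 in all 9 Alport samples. Leaving out vehicle sample 1 or vehicle sample 3 reduced the count of fallers to 6.

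Contractile and pericyte genes fell in 8 of 12 cases, beside the same 4.46%, with a median of -1.02, 5 of 6 contractile genes and 3 of 6 receptors and surface markers. Acta2, smooth muscle actin and the usual marker of myofibroblasts, read 14.15, 13.57 and 14.39 under vehicle, 11.33, 12.16 and 12.26 under losartan and 12.57, 11.85 and 11.57 under metformin. It fell 4.23-fold (log2 -2.08 ± 0.28; limma adjusted p = 0.000473) with no order between the drugs (metformin minus losartan 0.08, 95% interval -0.60 to 0.76). Tagln, an actin-binding protein of smooth muscle, fell 3.53-fold and the myosin light chain gene Myl9 2.23-fold. Pdgfrb, the growth factor receptor of pericytes, fell 2.64-fold from 11.62 to 11.99 down to 10.04 to 10.84.

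In the TGF-beta pathway, the main inducer of scar matrix, 5 of 22 genes fell and 1 rose, beside 4.46% and 4.69% of all probe sets. The ligand gene Tgfb1 read 12.48, 11.35 and 12.19 under vehicle, 10.83, 10.22 and 10.72 under losartan and 11.27, 10.87 and 10.18 under metformin. It fell 2.51-fold (limma adjusted p = 0.00407), and the lowest vehicle value, 11.35 in sample 2, lay just above the highest drug value of 11.27. Ccn2, a growth factor induced by TGF-beta, fell 2.86-fold and ended 0.10 from wild type, and Thbs1, which activates the latent ligand, fell 2.25-fold. Ltbp2, of the latent TGF-beta binding protein family, fell 3.07-fold at readings below the sample medians with the drugs. Bmp7, an antagonist of TGF-beta effects in the kidney, rose 1.83-fold from 8.04 to 8.29 up to 8.87 to 9.49. None of the 5 Smad genes, the signal transducers, passed limma's test, and 1 had an unadjusted p under 0.05. Without vehicle sample 2, 8 of the 22 genes fell.

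Tubular injury genes fell in 19 of 33 cases and none rose, beside 4.46% of all probe sets that fell, with a median of -1.11, which was -1.43 with losartan and -0.80 with metformin. Sox9, a transcription factor of injured and regenerating tubule, read 9.76, 8.83 and 9.59 under vehicle, 7.29, 7.47 and 6.96 under losartan and 7.85, 8.19 and 6.68 under metformin, a fall of 3.96-fold. The calcium-binding protein gene S100a6 fell 3.05-fold and the tropomyosin gene Tpm1 2.47-fold. The most used urinary injury markers did not pass. Havcr1, which encodes kidney injury molecule, read 15.68, 13.66 and 13.80 under vehicle, 12.91, 11.45 and 11.97 under losartan and 14.55, 14.03 and 12.15 under metformin, so that vehicle and metformin overlapped. Its difference was -1.54 ± 0.49 (limma adjusted p = 0.0611), and it passed without vehicle sample 2 (-1.90, adjusted p = 0.0402), losartan sample 1 (-1.74, 0.0385) or metformin sample 1 (-1.78, 0.0266). It also passed after a new quantile normalization (-1.69, adjusted p = 0.0461), with dim probe sets left out (0.0488) and with the replicate block (0.00808), and without vehicle sample 1 it was -0.89 (0.364).

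Lcn2, the iron-carrier neutrophil lipocalin, read 14.23 to 15.72 under vehicle, 11.80 to 15.55 under losartan and 13.15 to 15.04 under metformin. The difference of -1.23 ± 0.59 did not pass (limma adjusted p = 0.235), and it passed without losartan sample 1, the highest drug sample (-1.74, adjusted p = 0.0162). Clusterin (Clu), the brightest gene of the list, read 17.33 to 17.53 under vehicle, 15.73 to 16.35 under losartan and 16.29 to 18.05 under metformin. It differed by -0.72 over both drugs (limma adjusted p = 0.117) and by -0.92 without metformin sample 1 (adjusted p = 0.0207). The count of fallers was 9 without vehicle sample 1.

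Immune genes fell in part. Of 32 chemokine and cytokine genes 14 fell, 11 of 22 chemokines and 3 of 10 cytokines, beside 4.46% of all probe sets, and the median was -0.65. The lowest value, -2.72, was also the lowest of the tubular injury list, so the fallers of these lists are not all separate genes. Csf1, the growth factor of macrophages, read 12.68, 11.32 and 12.45 under vehicle, 10.03, 10.21 and 10.01 under losartan and 11.22, 10.57 and 9.29 under metformin, a fall of 3.81-fold. Cxcl16 fell 2.15-fold, as did the lymphoid chemokine gene Ccl21a, which belongs to a family of near-identical copies. The count was 5 without vehicle sample 1 and 8 without vehicle sample 3.

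Of 23 macrophage markers 9 fell, beside 4.46% of all probe sets, with a median of -0.96. For none of the 23 did all 6 drug samples lie below all 3 vehicle samples, beside 4.9% of all probe sets. Lyz2, the lysozyme of macrophages, read 13.09, 11.93 and 14.06 under vehicle, 10.44, 9.84 and 10.26 under losartan and 12.56, 12.25 and 10.67 under metformin. Vehicle sample 2 lay below metformin samples 1 and 2, and the fall over both drugs was 4.07-fold (limma adjusted p = 0.0068). The mannose receptor gene Mrc1 fell 4.13-fold, a log2 change of -2.05 that was -2.70 without vehicle sample 2. Laptm5, a lysosomal protein of blood cells, fell 2.40-fold and the Fc receptor chain gene Fcer1g 1.98-fold. Both lost their call without vehicle sample 1 (adjusted p = 0.0779 and 0.0528) and without vehicle sample 3 (0.107 and 0.0728). The count of 9 fallers rested on single samples: it was 2 without vehicle sample 1 or 3, 16 without vehicle sample 2, 4 without losartan sample 2 and 5 without losartan sample 3 or metformin sample 3.

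Genes that present antigen through MHC class II fell in 3 of 9 cases, beside 4.46% of all probe sets, with a median of -1.66 under losartan and -0.43 under metformin. H2-Eb1, a chain of a class II molecule, read 11.87 to 12.79 under vehicle, 10.04 to 10.85 under losartan and 12.65, 11.75 and 10.54 under metformin, so that metformin sample 1 lay within the vehicle range. It fell 2.43-fold over both drugs (limma adjusted p = 0.0252), H2-Ab1 2.17-fold and the peptide-loading gene H2-DMb1 1.93-fold, and H2 genes resemble each other in sequence. All 3 calls were lost without vehicle sample 1 (adjusted p = 0.0931, 0.154 and 0.0992), vehicle sample 3 (0.13, 0.165 and 0.145) or losartan sample 2 (0.0592, 0.0722 and 0.0648). The count was 5 without vehicle sample 2 and 6 without metformin sample 1.

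In the complement list 5 of 14 genes fell, beside 4.46% of all probe sets, and 3 without vehicle sample 1. Serping1, the inhibitor of the complement starter protease, fell 3.36-fold from 13.38 to 14.39 down to 11.62 to 12.77, and the pore component gene C7 fell 2.69-fold. Of 27 interferon-response genes 2 fell (Bst2 and Irf1), and 2 of 17 T and NK cell genes fell (Cd3e and Il7r). With 4.46% of all probe sets falling, such small counts are close to the background and are no result about these lists. These counts were 1 and 0 without vehicle sample 3, and the interferon count was 1 without vehicle sample 1 and 4 without vehicle sample 2 or metformin sample 1. Jchain was the only faller among 10 B and plasma cell genes. None of 10 neutrophil genes passed limma's test, and 2 had an unadjusted p under 0.05.

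Cell cycle genes fell in part in the mean over both drugs, almost all of them in the list's later phase. Beside 4.46% of all probe sets that fell, 13 of 18 genes of G2 and mitosis fell (median -1.07). Of 13 genes of G1 and DNA synthesis 1 fell, and none of the 31 rose. In the G2 and mitosis group the median was -1.35 with losartan and -0.79 with metformin against the same vehicle samples. The confidence interval of metformin minus losartan stayed within 2-fold for 6 of these 18 genes. An equal fall with both drugs was thus not shown for the rest. Over all 31 genes, the median deviation from the vehicle mean was -0.97 to -0.69 with losartan. It was -0.30, -0.33 and -1.07 in metformin samples 1, 2 and 3. Mki67, the classical proliferation antigen, read 9.61, 9.85 and 9.29 under vehicle, 7.10, 6.86 and 7.29 under losartan and 8.48, 8.58 and 7.17 under metformin. It fell 4.01-fold, and metformin sample 3 again lay among the losartan samples. Ccnb2, a cyclin of mitosis, fell 2.85-fold from 8.06 to 8.28 down to 6.01 to 7.45. The spindle checkpoint gene Bub1b fell 3.52-fold and the mitotic kinase gene Aurkb 2.49-fold, both to readings below the sample medians. Pcna, the clamp of DNA synthesis, was the faller of the earlier group, at 1.66-fold. The count for the whole list was 9 without vehicle sample 1. Of 12 p53 and senescence-linked genes, Cdkn1a fell (2.51-fold), a call lost without vehicle sample 1 (adjusted p = 0.144) or vehicle sample 3 (0.0849).

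The bases before the start of 4 genes are printed because the mitotic genes fell and the sterol genes, described further on, rose, while a CCAAT box was frequent before the starts of both groups. Each run is the 250 bases before the annotated start, 5′ to 3′ on the gene's own strand, from RefSeq on GRCm38.p6. Capitals mark CCAAT or its reverse complement ATTGG, the letters searched on both strands. The stretches are chr7:135716380-135716629 on the minus strand for Mki67, chr9:70421555-70421804 on the minus strand for Ccnb2, chr5:4104698-4104947 on the minus strand for the sterol demethylase gene Cyp51 and chr7:143822917-143823166 on the plus strand for the sterol reductase gene Dhcr7.
Mki67: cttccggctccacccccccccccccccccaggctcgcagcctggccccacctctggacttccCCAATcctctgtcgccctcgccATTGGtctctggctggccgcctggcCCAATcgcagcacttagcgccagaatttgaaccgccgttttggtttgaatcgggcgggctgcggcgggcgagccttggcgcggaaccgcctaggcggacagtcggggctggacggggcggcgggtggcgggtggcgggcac
Ccnb2: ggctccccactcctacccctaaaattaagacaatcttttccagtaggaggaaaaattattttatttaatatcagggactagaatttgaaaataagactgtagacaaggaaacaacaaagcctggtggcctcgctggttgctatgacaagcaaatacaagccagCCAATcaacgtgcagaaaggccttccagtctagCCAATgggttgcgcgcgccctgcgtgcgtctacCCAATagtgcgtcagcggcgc
Cyp51: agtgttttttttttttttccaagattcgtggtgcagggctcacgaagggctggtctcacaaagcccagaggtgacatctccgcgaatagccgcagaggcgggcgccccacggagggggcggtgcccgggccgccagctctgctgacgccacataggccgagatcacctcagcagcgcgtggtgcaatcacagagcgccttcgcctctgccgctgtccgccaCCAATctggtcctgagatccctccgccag
Dhcr7: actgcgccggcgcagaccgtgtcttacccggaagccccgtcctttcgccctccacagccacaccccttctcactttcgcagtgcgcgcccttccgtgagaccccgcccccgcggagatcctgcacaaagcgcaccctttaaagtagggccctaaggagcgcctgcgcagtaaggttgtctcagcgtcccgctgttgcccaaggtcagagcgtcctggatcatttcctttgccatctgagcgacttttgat
Mki67 and Ccnb2 hold 3 matches each, Cyp51 holds 1 and Dhcr7 holds 0. The same stretches of the mitotic gene Bub1b, which fell, and the sterol-sensing gene Insig1, which rose, hold 1 match each and are not printed. Over all 27025 promoters of the table, 9314 (34.5%) held at least 1 match in this window. A start was found for 11 of the 14 cell cycle genes that fell, and 9 of these held a match (81.8%), as did 10 of the 15 cell cycle genes with a start that did not pass (66.7%). For the sterol genes the counts were 9 of 10 among risers (90%) and 5 of 5 among those that did not pass. Matrix genes that fell held it in 5 of 16 cases (31.2%) and proximal tubule genes that rose in 12 of 27 (44.4%). The letters were thus present before genes that rose, fell or did not pass, and a match is a description of the sequence only.

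Immediate early genes, which cells switch on within minutes of a stimulus, fell in 11 of 21 cases, beside 4.46% of all probe sets, with a median of -0.74. Egr1, a zinc-finger transcription factor, read 11.46, 11.77 and 11.15 under vehicle, 9.16, 8.95 and 8.69 under losartan and 10.13, 9.73 and 8.48 under metformin. It fell 4.82-fold (log2 -2.27 ± 0.29; limma adjusted p = 0.000371), and the losartan and metformin ranges overlapped through metformin sample 3. Its relative Egr2 fell 3.30-fold, and the matricellular gene Ccn1 fell 2.94-fold to values between 11.16 and 11.97, beside 11.44 to 11.99 in wild type. The AP-1 subunit gene Jund fell 1.81-fold. Dusp1, the phosphatase gene that is the brightest of the list, differed by 0.54 in the other direction and did not pass (limma adjusted p = 0.159). The count was 6 without vehicle sample 1.

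Most genes of the ATF4 stress response did not pass. Of 23 measured, 4 fell and 2 rose, beside 4.46% and 4.69% of all probe sets, and 17 did not pass. The median was -0.10, and the count of 2 risers is close to the background. Nupr1, a stress-induced nuclear protein, read 12.78, 12.58 and 13.13 under vehicle, 11.39, 11.11 and 10.98 under losartan and 11.42, 11.56 and 11.15 under metformin, a fall of 2.95-fold with the drug groups interleaved. The folate enzyme gene Mthfd2 fell 2.00-fold, while Shmt2, which hands serine carbon to the same mitochondrial folate pathway, rose 1.87-fold. Cth, which makes cysteine and hydrogen sulphide, rose 1.69-fold, a call lost without vehicle sample 1 (adjusted p = 0.0664). The count of fallers was 2 without vehicle sample 1 or vehicle sample 3. In the antioxidant list of 20, the catalase gene Cat rose 1.53-fold and the glutathione synthetase gene Gss 1.88-fold, and the heme oxygenase gene Hmox1 fell 1.75-fold.

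Proximal tubule genes rose. Of 58 measured, 34 rose and none fell, beside 4.69% of all probe sets that rose, and the median was 0.64. It was 0.73 with losartan and 0.63 with metformin against the same vehicle samples. By role, 17 of 29 carriers, 2 of 4 endocytic receptors or partners, 14 of 21 enzymes and other products and 1 of 4 transcription factors rose. Hnf4a, the transcription factor of proximal tubule identity, read 13.52, 14.04 and 13.83 under vehicle, 15, 15.10 and 14.94 under losartan and 14.59, 14.64 and 14.65 under metformin. It rose 2.03-fold (log2 1.02 ± 0.14; limma adjusted p = 0.000496). The 3 metformin values lay between vehicle and losartan, with a metformin minus losartan difference of -0.39 (95% interval -0.73 to -0.05) that did not pass over all probe sets (adjusted p = 0.532).

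Slc7a13, an amino acid exchanger of the straight proximal tubule, read 15.21, 16.09 and 15.97 under vehicle, 17.45, 17.81 and 17.31 under losartan and 16.69, 17.07 and 17.39 under metformin, a rise of 2.89-fold. The amino acid carrier gene Slc6a20b rose 2.36-fold from 14.71 to 15.08 up to 15.84 to 16.33. Lrp2, which encodes megalin, the receptor for filtered protein, rose 1.57-fold, a call lost without vehicle sample 1 (log2 0.48, adjusted p = 0.157) or after a new quantile normalization (0.54, 0.0616). Slc34a1 differed by 0.31 and did not pass (limma adjusted p = 0.171), although all 6 drug values lay above the vehicle values. Kap, an androgen-regulated product and the brightest gene of the list, read 19.44 to 19.64 in all 9 Alport samples, close to the top of the array's scale, where differences are compressed.

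The median deviation of the proximal tubule list from the vehicle mean was -0.25 to 0.16 in the 3 vehicle samples, 0.57 to 0.78 with losartan and 0.52 to 0.70 with metformin, so the drug groups overlapped each other and neither overlapped vehicle. The summed macrophage markers moved the other way, with the ranges given above, and their part in the result was not tested. Without vehicle sample 1, 21 of the 58 genes rose.

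**Figure D4:**
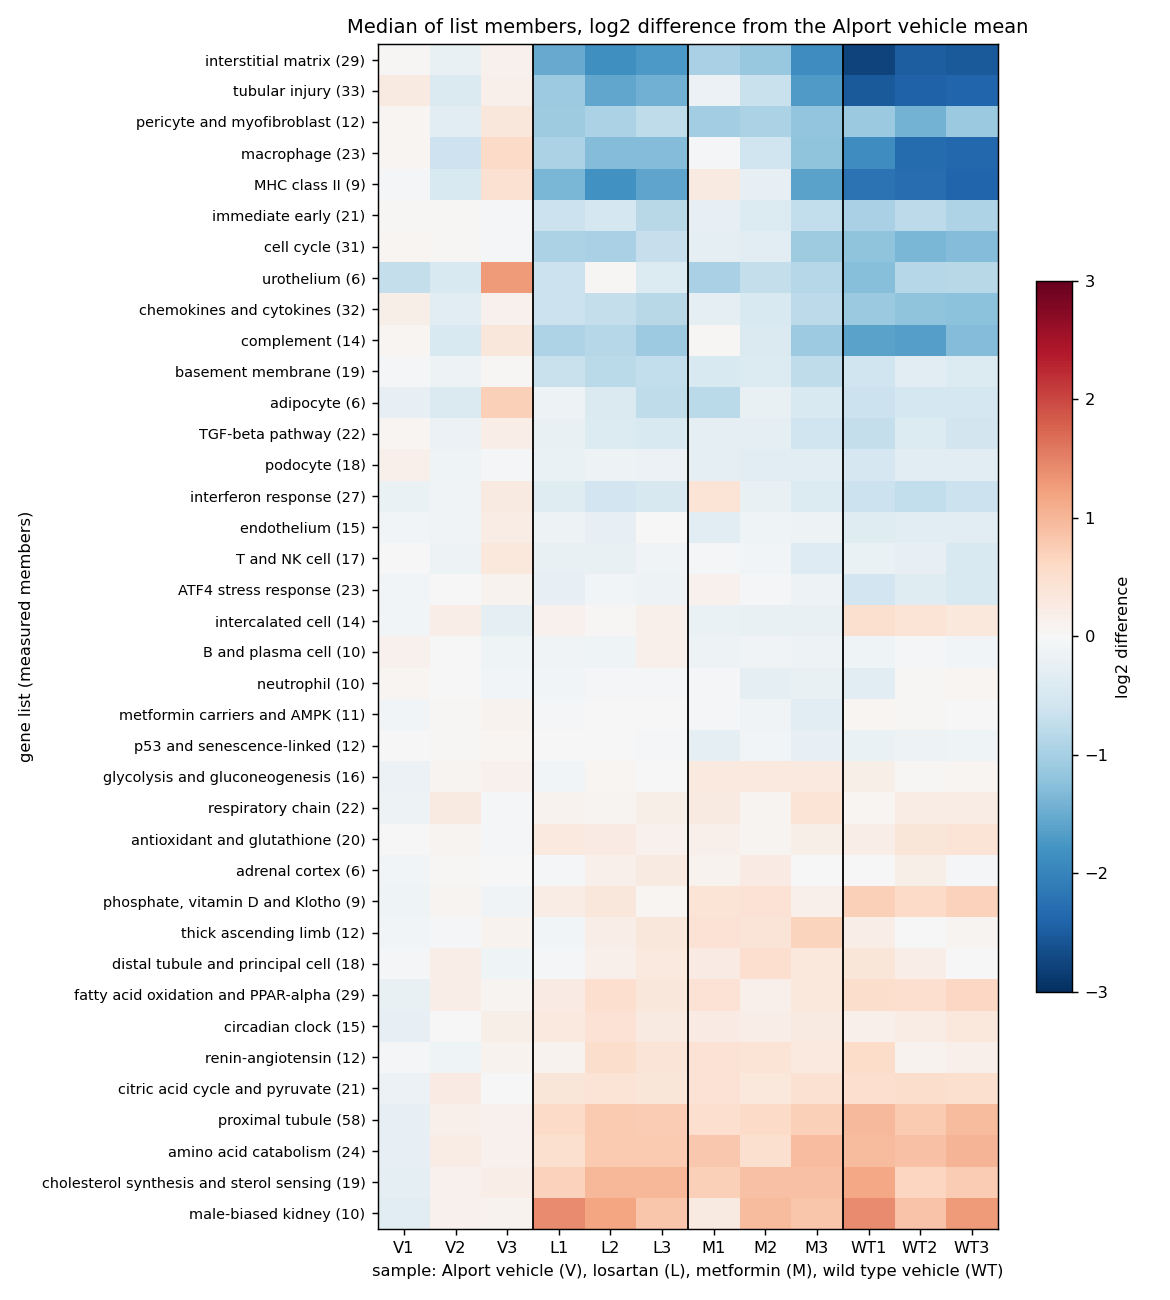
Heat map of 38 gene lists (rows) by sample (columns), where colour gives the median over list members of the log2 deviation from the Alport vehicle mean. Matrix and injury lists lie below 0 and proximal tubule and sterol lists above 0 in all 6 drug columns, and metformin sample 3 is nearest the losartan columns in the injury and macrophage rows.

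Other nephron segments and the glomerulus differed in how many genes passed. In the thick ascending limb, 4 of 12 genes rose, beside 4.69% of all probe sets, among them Egf, the growth factor that this segment secretes into urine, from 12.46, 13.79 and 12.64 with vehicle to 14.63, 14.41 and 14.70 with losartan and 13.92, 14.19 and 15.26 with metformin. That rise was 2.94-fold, and the count was 1 without vehicle sample 1, losartan sample 2 or metformin sample 3 and 2 after a new quantile normalization. Umod differed by 0.03 and did not pass. In the distal tubule and collecting duct 1 of 18 genes rose (Kcnj10), a share near the 4.69% of all probe sets, and none did without vehicle sample 1. Foxi1, the transcription factor of acid-secreting intercalated cells, was the faller among 14 genes of that cell, beside 4.46% of all probe sets that fell. It fell 1.65-fold, with a difference from wild type of -1.29, a call against vehicle that was lost without vehicle sample 1 (adjusted p = 0.0766).

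Among 18 podocyte genes 2 fell, Ptpro and Tcf21, a count close to the background of 4.46%, and 1 fell when samples were centred on their medians or without vehicle sample 1, vehicle sample 3 or losartan sample 2. Tcf21, a transcription factor of podocytes and of stromal cells, fell 2.46-fold from 9.34, 9.12 and 10.08 to between 7.91 and 8.94. Nphs1 differed by -0.07 and did not pass. Endothelial genes fell in 3 of 15 cases, beside the same 4.46% (Eng, Pecam1 and Cdh5), and none passed when samples were centred on their medians or without losartan sample 2, losartan sample 3 or metformin sample 3. Klotho (Kl), the co-receptor of a phosphate-lowering hormone, rose 2.02-fold with 2 other genes of 9 in the phosphate list, beside 4.69% of all probe sets that rose. Of these 9, 1 rose without vehicle sample 1.

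Enzymes that break down amino acids rose in 14 of 24 cases, beside 4.69% of all probe sets, with a median of 0.75, and none fell. Gstz1 and Fah, the last steps of tyrosine breakdown, rose 2.36-fold and 1.74-fold. In the route from tryptophan to NAD, Afmid read 10.79, 10.92 and 11.11 under vehicle, 12.38, 12.68 and 12.34 under losartan and 12.33, 12.04 and 12.68 under metformin. Its rise was 2.77-fold (log2 1.47 ± 0.18; limma adjusted p = 0.000337), with metformin minus losartan at -0.12 (95% interval -0.56 to 0.33). Kmo rose 2.19-fold and Haao 2.27-fold. The count was 6 without vehicle sample 1.

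Genes of fuel metabolism rose in part. All 4 genes listed under gluconeogenesis rose, beside 4.69% of all probe sets (median 1.13), the fructose kinase gene Khk among them, and none of 12 glycolytic genes passed limma's test, with 2 at an unadjusted p under 0.05. Pck1, the committing enzyme of renal glucose output, read 14.04, 15.72 and 15.29 under vehicle, 16.14, 16.22 and 15.97 under losartan and 16.74, 16.27 and 16.53 under metformin. Vehicle sample 1 was the lowest of the 9, the rise was 2.45-fold, and without that sample the log2 change of 1.30 was 0.81 (adjusted p = 0.0587). Khk rose 2.39-fold. The glucose phosphatase gene G6pc rose 2.00-fold and Fbp1 1.5-fold. G6pc lost its call without vehicle sample 1 (adjusted p = 0.179), vehicle sample 2 (0.0516), losartan sample 2 (0.0616) or metformin sample 3 (0.0586). Fbp1 lost it without vehicle sample 1 (0.226), vehicle sample 3 (0.106), losartan sample 2 (0.0637), losartan sample 3 (0.063) or metformin sample 3 (0.0667). In the list of 16 the count of risers was 1 without vehicle sample 1 and 2 without losartan sample 2 or metformin sample 3.

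Of 21 citric acid cycle and pyruvate genes 6 rose, beside 4.69% of all probe sets, with a median of 0.34. Pcx, which carboxylates pyruvate, read 12.83, 13.65 and 13.25 under vehicle, 14.06, 14.52 and 14.42 under losartan and 14.63, 14.61 and 14.81 under metformin, a rise of 2.40-fold. Pdha1, of the pyruvate dehydrogenase complex, rose 1.97-fold and the succinate dehydrogenase gene Sdha 1.89-fold, the latter past the threshold no more without vehicle sample 1 (adjusted p = 0.0532). The count was 2 without vehicle sample 1, 3 without losartan sample 2 or 3, and 10 without vehicle sample 2. Of 29 fatty acid oxidation genes 8 rose, beside the same share of all probe sets (median 0.29). Nr1h4, the bile acid receptor, rose 2.15-fold and the electron-transfer dehydrogenase gene Etfdh 1.54-fold. Cpt1a, the gate of fatty acids into mitochondria, rose 1.49-fold, a call lost without vehicle sample 1 (adjusted p = 0.065). The count was 2 without vehicle sample 1 and 5 without losartan sample 2 or metformin sample 3. Of 22 respiratory chain genes 3 rose. That count was 6 with samples centred on their medians or without vehicle sample 2, 1 after a new quantile normalization or without vehicle sample 3, and 0 without vehicle sample 1.

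Cholesterol synthesis and its control rose together, in 14 of 19 genes, beside 4.69% of all probe sets, with a median of 0.92, which was 0.83 with losartan and 0.90 with metformin. Dhcr7, the last enzyme of the pathway, read 7.44, 7.44 and 7.78 under vehicle, 8.83, 9.28 and 8.99 under losartan and 8.86, 9.12 and 9.04 under metformin. This 2.76-fold rise (log2 1.47 ± 0.18; limma adjusted p = 0.000337) came with drug groups that covered nearly the same range. Sqle, the squalene epoxidase, read 8.52, 9.01 and 9.09 under vehicle, 10.04, 10.17 and 9.92 under losartan and 10.71, 10.68 and 10.31 under metformin. Its rise was 2.70-fold, and metformin minus losartan was 0.52 (95% interval 0.09 to 0.95, limma adjusted p = 0.495). Cyp51 rose 2.54-fold and Stard4, a cholesterol carrier protein, 1.94-fold. Hmgcs1, the brightest gene of the list, rose 1.69-fold, a call lost without vehicle sample 1 (adjusted p = 0.0775). For 13 of the 19 genes all 6 drug samples lay above all 3 vehicle samples, beside 5.87% of all probe sets. Without vehicle sample 1 the count of risers was 6.

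Genes of the agents' own targets were listed too. In the renin-angiotensin list 3 of 12 genes rose, beside 4.69% of all probe sets, all of them peptidases, and none of the 5 receptors passed limma's test, with 2 at an unadjusted p under 0.05. Ace, the angiotensin-converting enzyme, read 12.16, 12.99 and 12.65 under vehicle, 13.70, 13.81 and 13.66 under losartan and 13.67, 14.21 and 13.97 under metformin, a rise of 2.36-fold. Agtr1a, which encodes the receptor that losartan blocks, differed by 0.14 ± 0.19 (limma adjusted p = 0.742). The neprilysin gene Mme rose 1.62-fold and the aminopeptidase gene Anpep 1.57-fold. Mme lost its call without vehicle sample 1 (adjusted p = 0.0525) or vehicle sample 2 (0.05, at the threshold). Anpep lost it without vehicle sample 1 (0.187), vehicle sample 2 (0.0641), losartan sample 2 (0.0772), losartan sample 3 (0.0632) or metformin sample 2 (0.0664). The list's count was 1 without vehicle sample 1 or vehicle sample 2.

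Of the 3 carriers that handle metformin 2 rose, beside the same 4.69% of all probe sets. Slc22a2, the cation carrier of the blood side, read 15.67, 15.88 and 15.95 under vehicle, 16.72, 17.04 and 16.82 under losartan and 16.74, 16.82 and 16.73 under metformin, a rise of 1.97-fold with either drug's values overlapping. Slc47a1, the extruder of the urine side, rose 1.75-fold. None of 8 AMPK subunits and upstream kinases passed limma's test, with 3 at an unadjusted p under 0.05, and the catalytic subunit gene Prkaa2 differed by 0.35 ± 0.15 (adjusted p = 0.169).

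Of 10 genes known to be higher in male mouse kidney 7 rose, beside 4.69% of all probe sets, with a median of 0.94, which was 1.13 with losartan and 0.65 with metformin. Cyp2d9 read 10.85, 10.56 and 11.80 under vehicle, 12.95, 13.07 and 13.24 under losartan and 12.83, 12.42 and 12.99 under metformin, a rise of 3.6-fold. Cyp2j13 rose 1.81-fold. The count was 3 without vehicle sample 1 and 4 without vehicle sample 3. In the circadian list of 15, 4 genes rose and 1 fell, beside 4.69% and 4.46% of all probe sets. The clock repressor gene Ciart read 4.29, 5.55 and 5.22 under vehicle, 6.35, 7.06 and 6.58 under losartan and 6.89, 7.14 and 7.31 under metformin, a rise of 3.65-fold at dim readings that ended above wild type by 1.02. The output gene Tef rose 1.83-fold, and the clock activator gene Arntl fell 1.71-fold. The times at which kidneys were taken are not given in the labels. Tef lost its call without vehicle sample 1 (adjusted p = 0.0544). Arntl lost it without vehicle sample 1 (0.149), vehicle sample 3 (0.0901), losartan sample 2 (0.0609), losartan sample 3 (0.068), metformin sample 2 (0.0705) or metformin sample 3 (0.0557), and when samples were centred on their medians. The count of circadian risers was 1 without vehicle sample 1 and 2 without losartan sample 2, losartan sample 3, metformin sample 1 or metformin sample 3.

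Markers of tissue that could be cut along with a kidney were checked too. Of 6 urothelial genes 1 fell (Upk1b), beside 4.46% of all probe sets, and none passed when samples were centred on their medians or newly quantile-normalized. Their summed level was 8.78 to 11.14 with vehicle, with the maximum in vehicle sample 3, where Psca read 10.47, and 8.39 to 9.85 with the drugs. The part of that sample in the results was not tested beyond leaving it out, which gave 1412 probe sets that passed. None of 6 adipocyte, 6 adrenal and 2 red cell genes passed limma's test, with 2, 0 and 0 at an unadjusted p under 0.05.

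The treated kidneys were also set against wild type, a comparison that shares the 6 drug samples with the one above. There, 676 of 22206 probe sets (3.04%) passed limma's test, 435 (1.96%) higher and 241 (1.09%) lower than wild type. Without wild-type sample 3 the count was 174, and it was 321 without wild-type sample 2 and 419 and 446 without wild-type sample 1 and metformin sample 1. The matrix list lay above wild type by a median of 1.42, with 20 of 29 members called higher. Injury genes were called higher in 17 of 33 cases, macrophage markers in 15 of 23 and cell cycle genes in 6 of 31. Among the lists that rose with the drugs, 1 of 58 proximal tubule genes was called above wild type and 3 below (median -0.21). Over all probe sets 1.96% were called above and 1.09% below. In wild type this list's median deviation from the Alport vehicle mean was 0.79 to 0.96. It was lower with losartan (0.57 to 0.78) and with metformin (0.52 to 0.70). Of 19 cholesterol genes 0 were called against wild type (median -0.01).

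Farthest above wild type were Lcn2 by 7.82, Havcr1 by 6.08, Lyz2 by 4.28, the fibrinogen chain gene Fgg by 4.08 and Col3a1 by 3.77. Of these 5, Lyz2 and Col3a1 had fallen against vehicle. Fgg read 12.35 to 13.45 with vehicle and 9.16 to 13.70 with the drugs (difference -1.54, limma adjusted p = 0.0901), and it passed without losartan sample 1 (adjusted p = 0.0301) or metformin sample 1 (0.0278). Farthest below wild type were Cyp4a12a by -2.87, the plasma protein gene Hrg by -2.31, Ces1g by -2.15, Cyp4a12b by -1.70 and the growth factor binding protein gene Igfbp3 by -1.63. Hrg rose 3.04-fold against vehicle all the same, from 5.52, 6.44 and 6.25 to 8.13, 8.62 and 8.74 with losartan and 5.96, 7.09 and 7.51 with metformin. That call was lost in a plain 2-group fit (adjusted p = 0.0572).

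**Figure D5:**
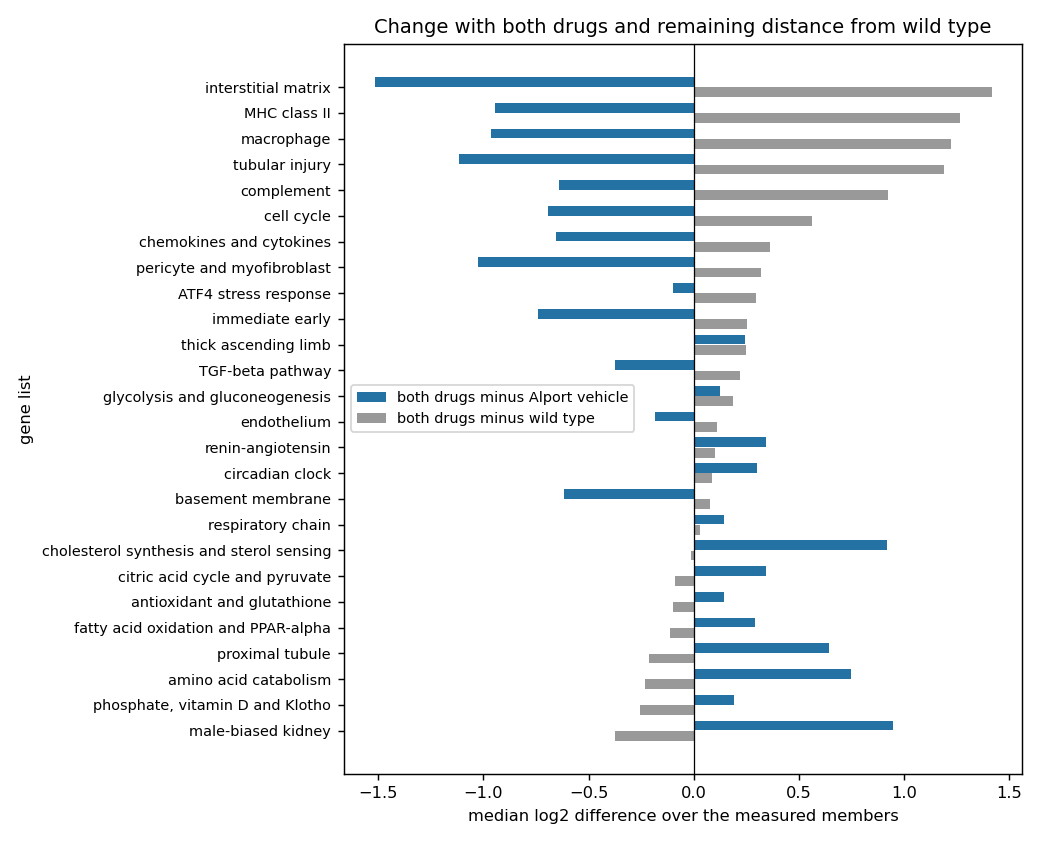
Median log2 difference over the members of 26 gene lists, both drugs minus Alport vehicle and both drugs minus wild type, 6 drug samples against 3 in each. The matrix bar reaches -1.52 against vehicle and 1.42 against wild type, and the cholesterol bars are 0.92 and -0.01.

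A mean over both drugs hides genes on which they part, and 8 named genes did so. Ces1g, a carboxylesterase with near-identical relatives, read 10.07, 10.30 and 11.63 under vehicle, 12.22, 11.71 and 12.45 under losartan and 7.57, 5.85 and 6.23 under metformin. Its mean over both drugs fell by 1.33 on the log2 scale, yet it stood 1.46 above vehicle with losartan and -4.12 with metformin, so no common effect can be read from it. Metformin minus losartan was -5.58 (limma adjusted p = 6.8e-06). Its call over both drugs was lost without vehicle sample 3 (adjusted p = 0.205), losartan sample 2 (0.0769), metformin sample 2 (0.0689) or metformin sample 3 (0.0687). Cyp4a12a, a fatty acid hydroxylase of male kidney, read 10.79 to 11.40 under vehicle, 13.34 to 13.90 under losartan and 9.79 to 11.50 under metformin, and its near-identical neighbour Cyp4a12b 10.85 to 11.11, 11.89 to 12.91 and 10.28 to 10.63. Their metformin minus losartan differences were -2.82 and -1.77.

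Car3, a carbonic anhydrase, moved under metformin only in its values, at 9.34 to 10.14 under vehicle, 9.68 to 10.04 under losartan and 11.51 to 13.32 with metformin (metformin minus losartan 2.77). Slc10a2, the bile acid carrier, read 10.81 to 10.92, 10.75 to 11.04 and 11.82 to 12.37, and the growth factor binding protein gene Igfbp1 5.55 to 5.83, 4.72 to 5.45 and 6.37 to 6.72. Slc5a10, a fructose and mannose carrier, rose over both drugs (2.31-fold) and was higher by 1.12 with metformin than with losartan. Anxa13, an epithelial annexin, had a metformin minus losartan difference of -1.38. Car3 and Slc10a2 passed over both drugs, and neither did without vehicle sample 1 (adjusted p = 0.103 and 0.0838), nor Slc10a2 without vehicle sample 3 (0.0709). Cyp4a12a passed over both drugs too, and not without vehicle sample 1 (0.0992) or vehicle sample 2 (0.0683). Between the drugs, Ces1g and Cyp4a12a kept their calls in every setting tried. The other 6 lost theirs when only the groups compared were fitted (adjusted p 0.0687 to 0.154) and without at least 1 of the drug samples, and the count of 10 was 91 without metformin sample 3 and 5 without losartan sample 2.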

How the data were processed

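The data were 12 Clariom S arrays of mouse kidney RNA, 3 per group, grouped by sample title. The deposited values are log2 signals per probe set, in which a unit is a doubling. The submitters' processing notes name Transcriptome Analysis Console 4.0, and how background was corrected and signals normalized and summarised is not given in the sources used here. Values were used as deposited, without further normalization. A linear model with 1 mean per group was fitted to all 12 samples and 22206 probe sets in limma 3.58.1 (R 4.3.3), leaving 8 residual degrees of freedom, with eBayes moderation and Benjamini-Hochberg adjustment over all probe sets at 0.05. Contrasts were both drugs minus vehicle, metformin minus losartan and both drugs minus wild type, all two-sided. Each drug minus vehicle is given as a value only, since both share the vehicle samples.

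Probe sets were named from GEO's platform table, and 2634 without a single symbol stayed unnamed. Of several probe sets for 1 symbol, the brightest was used. Named genes were a panel, the 15 largest non-overlapping rises and falls, each list's brightest member and up to 4 of smallest p, and up to 5 per direction of the other contrasts, and Lrp2 (megalin) with the members named in counts of 5 or fewer were chosen after their values were seen. The 39 lists held 775 entries, 707 of them measured. Members and lists were chosen with earlier results of these data known. The script was tested on simulated data. No 2 arrays held identical values. Same-numbered Alport samples did not deviate together (r -0.12 to 0.07 over 9 pairs), so the replicate numbers were not treated as pairs. Alternatives were centring, quantile normalization, omission of dim probe sets, a trended robust prior, array weights, a fit of the compared groups only, a replicate block, a plain 2-group fit and each sample left out. Leave-one-out counts for lists were added after seeing the data.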

Additional observations from a re-analysis of the deposited data

Results flagged for a closer look

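Among the 118 called and 19 uncalled genes checked, 8 had 1 of the 6 drug samples standing apart from the other 5 by more than Dixon's critical ratio for a group of 6, which chance passes in about 1 of 20 groups, so that a count of this size is near what chance gives. Higher than the rest were Slc22a2 in losartan sample 2 (17.04, next value 16.82), Khk in metformin sample 3 (15.55, next 14.9), Tcf21 in losartan sample 1 (8.94, next 8.25), Cat in losartan sample 2 (18.39, next 18.2) and Krt5 in losartan sample 2 (5.46, next 4.79). Lower than the rest were Slc22a7 in metformin sample 1 (12.15, next 13.3), Myl9 in losartan sample 3 (8.35, next 8.75) and Kl in losartan sample 1 (15.38, next 15.79). In 8 genes the effect of metformin differed from that of losartan by limma's test of the difference. Metformin minus losartan was 2.77 for Car3, 1.43 for Igfbp1, 1.12 for Slc5a10 and 1.11 for Slc10a2, and -5.58 for Ces1g, -2.82 for Cyp4a12a, -1.77 for Cyp4a12b and -1.38 for Anxa13.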

How the results depend on the processing

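The count of 2033 probe sets over both drugs was 2018 after a new quantile normalization, 2222 without dim probe sets, 2195 with a trended robust prior, 1634 with array weights, 1726 with only the groups compared and 1608 in a plain 2-group fit. With the replicate number as a block it was 1827, and metformin minus losartan gave 15 and both drugs against wild type 609. Of the 118 named calls, the plain 2-group fit lost 10 (Anpep, Car3, Ces1g, Cyp4a12a, Foxi1, H2-Ab1, H2-DMb1, H2-Eb1, Hrg and Slc10a2, adjusted p 0.0555 to 0.647). The trended robust prior lost 6 (Ces1g, G6pc, H2-Ab1, H2-Eb1, Mfsd2a and Slc22a7, 0.0514 to 0.0972) and added Slc34a1 (0.0363). Array weights lost 4 (Arntl, Ces1g, H2-Ab1 and H2-DMb1, 0.0509 to 0.0644), quantile normalization 3 (Anpep, Fbp1 and Lrp2, 0.0616 to 0.117), the compared groups alone 3 (Fbp1, H2-Ab1 and H2-DMb1, 0.0504 to 0.0605) and centring 1 (Arntl, 0.0538). The replicate block lost 1 (Fbp1, 0.0522). The block, quantile normalization and omission of dim probe sets each added Havcr1. At an unadjusted p under 0.05 with at least a 2-fold change, 584 probe sets passed over both drugs (218 higher, 366 lower), 102 between the drugs and 337 against wild type. Between the drugs, array weights gave 17 and only the groups compared 3, and against wild type array weights gave 1024. Leaving out each sample in turn gave 803 to 2232 over both drugs (371 to 1072 higher, 432 to 1160 lower), 5 to 91 between the drugs and 174 to 916 against wild type. Leave-one-out counts of fallers were 25 to 28 for matrix, 6 to 11 for basement membrane, 7 to 8 for pericyte, 9 to 25 for tubular injury, 5 to 17 for chemokine, 2 to 16 for macrophage, 0 to 6 for MHC class II, 9 to 17 for cell cycle and 6 to 11 for immediate early genes. Counts of risers were 21 to 38 for proximal tubule, 2 to 9 for fatty acid, 2 to 10 for citric acid cycle, 6 to 14 for cholesterol, 6 to 16 for amino acid and 3 to 8 for male-biased genes. Without vehicle sample 1, 23 of the 118 named calls were lost, and without losartan sample 1 or metformin sample 1 none. With 1 sample left out, the uncalled difference of Col4a5 ran from -0.30 to 0.12 and that of Krt5 from -1.41 to 0.12, positive without vehicle sample 3; the cause was not tested. Values near or below the sample medians, and those near the top of the scale, limit the folds of dim genes and of Kap.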
